A study of Homo sapiens with 12 samples.

Results

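Transforming growth factor beta (TGF-beta) signaling was examined through 10 genes: the ligands TGFB1, TGFB2 and TGFB3, the receptors TGFBR1, TGFBR2 and TGFBR3, the signal transducers SMAD2 and SMAD3, the inhibitor SMAD7, and TGFBI, a matrix protein named for its induction by TGF-beta. The members were taken by gene symbol from the count table, where all 10 were found among 23368 genes. Poly-A RNA of 2 breast cancer cell lines was sequenced after 3 days of culture as single cells encapsulated in poly(ethylene glycol) (PEG) hydrogels, which presented either GFOGER, a collagen-mimicking peptide, or IKVAV, a laminin-mimicking peptide. MDA-MB-231 cells are estrogen receptor negative and were first grown from a pleural effusion, and T47D cells are estrogen receptor positive. All 4 conditions shared the same cell-degradable crosslinker and DMEM with fetal bovine serum and antibiotics, so no group was kept without serum, and the labels list no added TGF-beta. Each RNA replicate pooled 3 gels that were dissolved with collagenase, and each cell line is a single established line.

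Libraries with counts numbered 3 for MDA-MB-231 with GFOGER, 2 for MDA-MB-231 with IKVAV, 3 for T47D with GFOGER and 3 for T47D with IKVAV. The remaining MDA-MB-231 IKVAV replicate is labelled an outlier by the submitters and was not analysed here. The depth ran from 14338238 to 18452145 gene-assigned reads. The labels do not say whether replicates were separate cultures, so p-values measure only the spread between these libraries, and in bulk RNA fewer cells with a transcript and less of it per cell cannot be told apart. The deposited values also divided the libraries, in a way whose origin is not given. The RPKM values (reads per kilobase of gene, scaled to library size) imply library totals of 5191201 to 5774966 in 5 libraries (MDA-MB-231 IKVAV replicate 1, all T47D GFOGER libraries and T47D IKVAV replicate 3) and of 19898878 to 22840524 in the other 6. The division follows the matrix in part in T47D, with 3 of 3 GFOGER and 1 of 3 IKVAV libraries at the lower totals. A term for it was fitted as an alternative. In the T47D fit this term leaves GFOGER compared with IKVAV replicate 3 alone. In the MDA-MB-231 fit it takes up IKVAV replicate 1, the only library there at the lower totals. It thus repeats the fit without that library. Some libraries stood apart from their group. The chi-square of the counts per gene (about 1 for sampling noise alone) was 16.5 and 18.6 for MDA-MB-231 GFOGER replicate 3 against the others and 2.5 between those, and 17.9 and 16.9 for T47D IKVAV replicate 3 against 5.5. Other pairs had 3.94 to 9.93.

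The labelled lines were checked against marker genes. Levels are given in cpm, which are counts scaled to the library size after its adjustment by the TMM normalization factor of edgeR. The 8 luminal epithelial markers summed to 523.9 to 637.5 cpm in MDA-MB-231 libraries. They summed to 5666 to 6390 cpm in T47D libraries, where KRT19 was the most abundant. The 6 mesenchymal-like basal markers summed to 4388 to 6933 cpm in MDA-MB-231 and to 128.8 to 148.1 cpm in T47D, where CD44 made up most of the sum. Both results go with the labels.

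TGF-beta ligands are secreted in a latent form and, once released, bind the type II receptor TGFBR2, which recruits and phosphorylates the type I receptor TGFBR1. TGFBR3 (betaglycan) is a co-receptor that presents ligand, in particular the TGFB2 protein. The activated type I receptor phosphorylates SMAD2 and SMAD3, which enter the nucleus with SMAD4, whereas SMAD7 blocks the receptor and is itself a target of the pathway. In breast epithelium the pathway is known for arresting growth, and in aggressive breast cancer cells for supporting invasion and matrix production.

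The makeup of the family differed between the cell lines at every level of the pathway. Set per kilobase of gene (cpm per kb), TGFB1 made up 75.2% of the 3 ligands in MDA-MB-231 with GFOGER and 71.8% with IKVAV, whereas TGFB3 made up 96.9% and 96.5% in T47D. TGFBR2 made up 73.9% and 74.8% of the receptors in MDA-MB-231, and TGFBR1 made up 97.1% and 96.4% in T47D. Among SMAD2, SMAD3 and SMAD7, SMAD3 held 68.1% and 71.6% in MDA-MB-231, and SMAD2 held 61% and 65.3% in T47D. Ranges of these shares over the libraries of the lines did not overlap for any of these 6 genes. A lack of overlap in cpm between the lines was common among all genes, as given below.

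**Figure D1:**
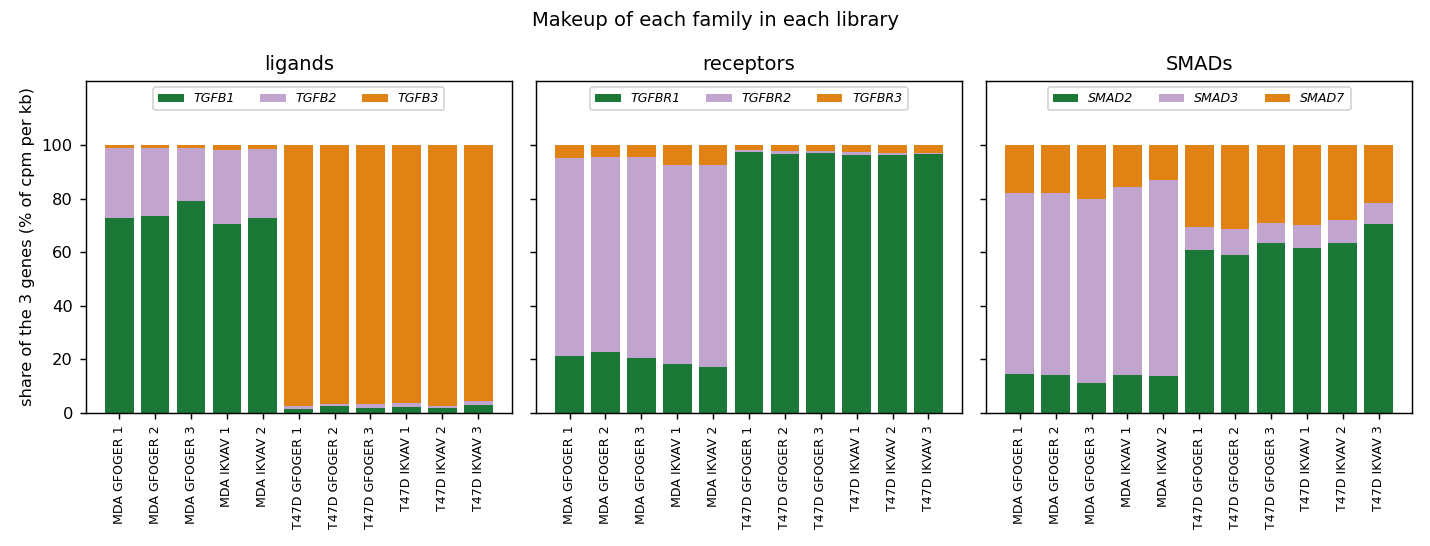
Share of each gene in its family (percent of the summed cpm per kb of the 3 genes, y axis) in each of the 11 libraries (x axis). TGFB1 and TGFBR2 took most of the ligand and receptor bars in every MDA-MB-231 library, and TGFB3 and TGFBR1 took at least 95.6% in every T47D library.

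Within MDA-MB-231, the level per kb ran from TGFBR2 (143.8 cpm per kb with GFOGER and 164.9 with IKVAV) through TGFBI (89.09 and 116.6), TGFB1 (72.6 and 94.89) and SMAD3 (46.88 and 49.97) to TGFB3 (1.145 and 2.074). With GFOGER the libraries overlapped between TGFBI and TGFB1, between SMAD3 and TGFBR1 and between SMAD2 and TGFBR3, and with IKVAV between SMAD7 and SMAD2. In T47D the order began with TGFB3 (37.02 and 34.39 cpm per kb), TGFBR1 (23.61 and 23.52), SMAD2 (9.437 and 9.829), SMAD7 (4.688 and 3.986) and SMAD3 (1.342 and 1.24). The lowest 5 genes in T47D were TGFB1, TGFBR3, TGFB2, TGFBI and TGFBR2 in both matrices, and each of them overlapped its neighbor.

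The ligands are described with their promoters, because TGFB3 was the only member called higher in T47D. The windows run from 250 bases before to 50 bases after the start site in RefSeq (table of the GRCh38.p14 assembly), and were placed on hg19 by exact match. TGFB1 lies at chr19:41859778-41860077 on the minus strand, TGFB2 at chr1:218518428-218518727 on the plus strand and TGFB3 at chr14:76448289-76448588 on the minus strand. The RefSeq start sites lie 4 bases (TGFB1), 2 bases (TGFB2) and 246 bases (TGFB3) from the gene starts of the deposited table, and the TGFB3 window lies wholly upstream of the counted gene (chr14:76424442-76448092). Capitals mark the TATA box motif, spelled TATAAA, and the GC box motif, spelled GGGCGG, searched on both strands, so that a GC box may also be printed as its reverse complement.
TGFB1: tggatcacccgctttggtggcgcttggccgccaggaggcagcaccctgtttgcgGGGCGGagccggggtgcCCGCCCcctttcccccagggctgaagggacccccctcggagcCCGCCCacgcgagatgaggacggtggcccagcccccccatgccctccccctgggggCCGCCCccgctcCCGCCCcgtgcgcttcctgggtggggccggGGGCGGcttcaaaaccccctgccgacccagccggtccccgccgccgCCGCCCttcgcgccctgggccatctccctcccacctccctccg
TGFB2: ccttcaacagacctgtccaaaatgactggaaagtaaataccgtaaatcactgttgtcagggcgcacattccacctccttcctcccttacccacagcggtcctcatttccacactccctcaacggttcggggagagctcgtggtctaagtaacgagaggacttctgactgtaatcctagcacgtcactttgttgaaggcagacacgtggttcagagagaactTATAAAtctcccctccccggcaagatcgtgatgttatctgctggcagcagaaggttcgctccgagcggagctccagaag
TGFB3: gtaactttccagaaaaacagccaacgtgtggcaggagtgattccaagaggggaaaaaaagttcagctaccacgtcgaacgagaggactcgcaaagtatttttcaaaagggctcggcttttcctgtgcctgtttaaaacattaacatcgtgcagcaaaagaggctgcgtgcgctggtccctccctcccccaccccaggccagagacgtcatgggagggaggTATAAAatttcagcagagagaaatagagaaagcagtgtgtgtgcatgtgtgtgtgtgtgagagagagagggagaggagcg
The TGFB2 and TGFB3 windows each held 1 TATAAA, at positions -29 and -30 from the start site, and no GGGCGG. The TGFB1 window held 7 GGGCGG matches and no TATAAA, and 77.3% of its bases were G or C, against 51.7% for TGFB2 and 50.3% for TGFB3. Among 27305 promoter windows of the same length, 12.0% held TATAAA and 44.6% held GGGCGG. A match of letters is a description of the window only.

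TGFB1 was at 145, 143.4 and 190.7 cpm in the MDA-MB-231 GFOGER libraries and at 202 and 215.6 cpm with IKVAV. In T47D it was at 1.137, 2.024 and 1.594 cpm with GFOGER and 1.966, 1.281 and 2.138 cpm with IKVAV. Every MDA-MB-231 library therefore lay far above every T47D library, and T47D held 0.992% (GFOGER) and 0.86% (IKVAV) of the MDA-MB-231 level. The log2 difference between the cell lines, MDA-MB-231 minus T47D, was 6.65 (SE 0.177) with GFOGER and 6.86 (SE 0.181) with IKVAV (adjusted p = 8.59e-18 and 1.14e-17, edgeR's quasi-likelihood test, adjusted by the Benjamini-Hochberg method, which gave all adjusted p-values here unless another tool is named).

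TGFB2 followed TGFB1 in direction. It was at 141.4, 132 and 128.9 cpm in MDA-MB-231 with GFOGER and at 213.3 and 205.4 cpm with IKVAV, without overlap between the matrices. T47D libraries held 2.872, 2.202 and 3.189 cpm with GFOGER and 3.254, 1.525 and 3.147 cpm with IKVAV, which overlapped. The log2 difference between the lines was 5.60 (SE 0.161) with GFOGER and 6.31 (SE 0.169) with IKVAV. An overlapping gene, LOC728463, had at most 10 reads in any library, against at least 25 reads for TGFB2.

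TGFB3 had the opposite order. T47D libraries held 118.9, 120.1 and 114.5 cpm with GFOGER and 116.7, 108.2 and 103.4 cpm with IKVAV. MDA-MB-231 libraries held 3.2, 3.52 and 4.214 cpm with GFOGER and 6.933 and 6.269 cpm with IKVAV. The lines did not overlap, and within MDA-MB-231 neither did the matrices. The log2 difference was -5.01 (SE 0.118) with GFOGER and -4.05 (SE 0.131) with IKVAV (adjusted p = 1.43e-18 and 2.55e-16).

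The receptors differed in the size of their contrast between the lines. TGFBR2 was at 701.3, 686.8 and 641.1 cpm in MDA-MB-231 with GFOGER and at 757.7 and 793.2 cpm with IKVAV. In T47D it was at 0.7778, 0.8333 and 0.968 cpm with GFOGER and 1.153, 0.915 and 0.772 cpm with IKVAV, which is 13 to 17 reads per library. The T47D level was 0.127% of the MDA-MB-231 level with GFOGER and 0.122% with IKVAV. The origin of these few reads was not tested. By absolute log2 difference, 9.61 (SE 0.126) with GFOGER and 9.68 (SE 0.129) with IKVAV, TGFBR2 ranked 140 and 111 among 15320 genes tested.

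TGFBR1 varied far less. Its levels were 277.6, 297.7 and 241.4 cpm (MDA-MB-231, GFOGER), 254.2 and 248.9 cpm (MDA-MB-231, IKVAV), 146.7, 145.1 and 166.8 cpm (T47D, GFOGER) and 141.1, 141 and 174.6 cpm (T47D, IKVAV). Every MDA-MB-231 library was above every T47D library, and the log2 difference of 0.83 (SE 0.0969) and 0.72 (SE 0.107) passed the adjusted p (1.48e-07 and 4.1e-06) but stayed under 2-fold. The co-receptor TGFBR3 was at 65.59, 60.57 and 53.75 cpm in MDA-MB-231 with GFOGER and at 110.2 and 115.7 cpm with IKVAV. In T47D it was at 3.051, 3.69 and 4.043 cpm with GFOGER and 3.661, 4.575 and 5.285 cpm with IKVAV. Its log2 difference between the lines was 4.05 (SE 0.141) and 4.64 (SE 0.144).

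SMAD2 was the member with the most even level. It was at 105.5, 101.9 and 84.73 cpm in MDA-MB-231 with GFOGER, 106.2 and 103.8 cpm with IKVAV, 103.3, 95.36 and 105.1 cpm in T47D with GFOGER and 98.37, 103 and 115 cpm with IKVAV. All 4 groups overlapped, and the log2 difference between the lines was -0.06 (95% interval -0.24 to 0.13) with GFOGER and -0.01 (95% interval -0.21 to 0.20) with IKVAV (adjusted p = 0.587 and 0.956). The sign of this difference changed under some alternative settings.

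SMAD3, which shares the receptor with SMAD2, was at 306.7, 298.5 and 326.1 cpm in MDA-MB-231 with GFOGER and at 325 and 336.9 cpm with IKVAV. T47D libraries held 9.154, 9.762 and 7.744 cpm with GFOGER and 8.203, 8.479 and 7.958 cpm with IKVAV. The lines did not overlap, with a log2 difference of 5.13 (SE 0.1) and 5.33 (SE 0.105). SMAD7 was at 42.11, 41.37 and 49.77 cpm in MDA-MB-231 with GFOGER, 37.84 and 30.8 cpm with IKVAV, 16.69, 16.25 and 15.49 cpm in T47D with GFOGER and 15.32, 14.64 and 11.22 cpm with IKVAV. Its log2 difference between the lines was 1.46 (SE 0.129) and 1.32 (SE 0.144). The GFOGER libraries of SMAD7 lay above the IKVAV libraries in both lines.

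TGFBI was at 241.9, 240.2 and 267.6 cpm in MDA-MB-231 with GFOGER and at 348.3 and 306 cpm with IKVAV. In T47D it had 7 to 19 reads per library, or 0.4157 to 1.082 cpm. The log2 difference between the lines was 8.38 (SE 0.176) with GFOGER and 9.01 (SE 0.186) with IKVAV, ranks 445 and 227 of 15320.

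**Figure D2:**
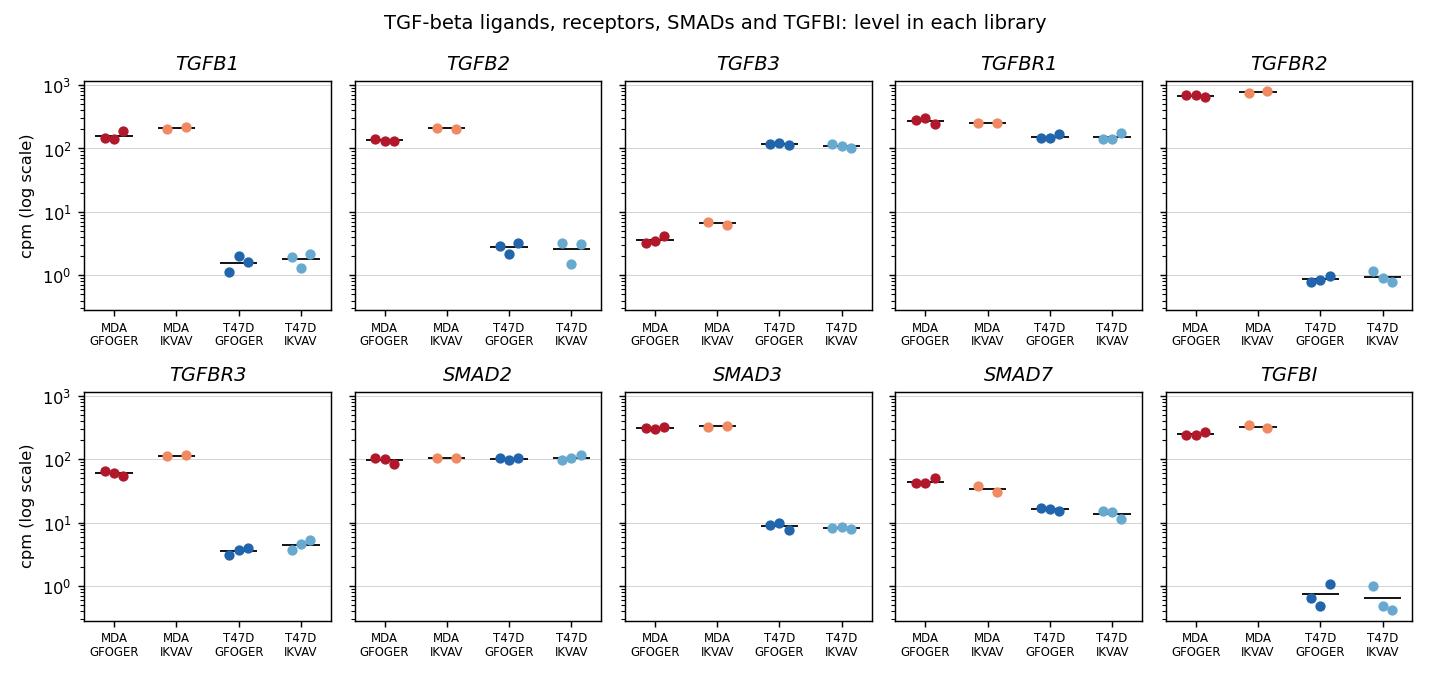
Level of each of the 10 genes (cpm, log scale, y axis) in each library of the 4 conditions (x axis, MDA for MDA-MB-231). Points are libraries and black lines are group means. TGFB3 was above 100 cpm in T47D and below 7 cpm in MDA-MB-231, the reverse of the other ligands, and SMAD2 stayed between 84.73 and 115 cpm.

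In counts, 8 of 10 members were called between the lines with GFOGER (adjusted p under 0.05 and over 2-fold), 7 higher and 1 lower in MDA-MB-231, when 46.9% of all genes tested were called (23.7% higher and 23.2% lower). With IKVAV the counts were the same, against 45.9% of all genes (23.6% higher and 22.3% lower). The median absolute log2 difference of the members was 5.07 and 4.98, beside 0.93 and 0.916 over all genes tested. Libraries of the lines did not overlap for 9 of 10 members with each matrix. The same held for 12418 (GFOGER) and 12824 (IKVAV) of 15320 genes tested, so a lack of overlap was common. Both comparisons and the matrix comparisons below use the same libraries, so their values are not independent.

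**Figure D3:**
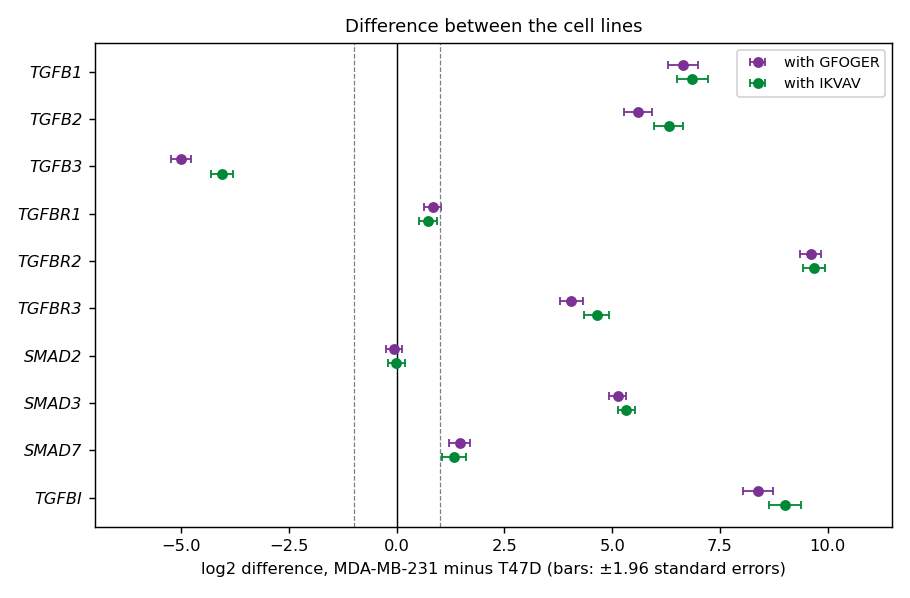
Log2 difference between the cell lines (x axis, MDA-MB-231 minus T47D) for the 10 genes (y axis) with each matrix. Bars are 95% intervals and dashed lines mark 2-fold. TGFBR2 and TGFBI lay farthest to the right at 8.38 or more, TGFB3 at -4.05 or below, and SMAD2 at 0.

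Whether the peptide changed the pathway within a cell line was asked next. In MDA-MB-231 cells, ligand transcripts fell with the collagen mimic: the log2 fold change of GFOGER relative to IKVAV was -0.65 (SE 0.0901, adjusted p = 2.78e-05) for TGFB2 and -0.86 (SE 0.217, adjusted p = 0.00433) for TGFB3. TGFB1 fell by 0.40 (SE 0.112, adjusted p = 0.00923), but with IKVAV replicate 1 or 2 left out, so that 1 IKVAV library was assumed to vary like the GFOGER libraries, its adjusted p was 0.051 and 0.132. TGFBR3 had the largest change of the 10, -0.92 (SE 0.108, adjusted p = 5.21e-06).

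TGFBR2 was 0.20 lower (SE 0.0807) with libraries that did not overlap and an adjusted p of 0.0502, on the other side of the threshold under upper-quartile normalization (0.0252), with library size alone (0.0324), with at least 10 counts in every library (0.0411) and in voom (0.00187). TGFBR1 differed by 0.11 (adjusted p = 0.405) and SMAD3 by -0.10 (adjusted p = 0.355). Both passed in voom, TGFBR1 at 0.16 (adjusted p = 0.011) and SMAD3 at -0.12 (adjusted p = 0.0412). Without GFOGER replicate 3, the library that stood apart, these 3 genes had adjusted p-values of 0.000263 (TGFBR2), 0.000328 (TGFBR1) and 0.0108 (SMAD3) at log2 fold changes of -0.16, 0.19 and -0.13. SMAD2 differed by -0.12 (adjusted p = 0.422), and with each library left out its value ran from -0.18 to -0.02.

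The inhibitor SMAD7 rose by 0.37 (SE 0.129, adjusted p = 0.0309), the only member that passed with a higher level with GFOGER. Without IKVAV replicate 2 it was 0.23 (adjusted p = 0.357). TGFBI fell by 0.40 (SE 0.0898, adjusted p = 0.00205). Without IKVAV replicate 1 it was -0.30 and did not pass. The term for the RPKM totals, which takes up that same library, also gave -0.30.

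Counted over the members in MDA-MB-231, 0 of 10 were called over 2-fold by edgeR or DESeq2, when 9.57% of all genes tested were called (3.12% higher with GFOGER and 6.46% lower). An unadjusted p under 0.05 was found for 7 of 10 members and for 50.2% of all genes. At any fold, 6 of 10 passed, 5 lower and 1 higher with GFOGER, when 42.9% of all genes passed (21.4% in each direction). The same count came from DESeq2, whereas 9 passed without GFOGER replicate 3 and 4 without IKVAV replicate 1 or 2. The members' median log2 fold change was -0.30, beside 0.0039 for all genes. Libraries of the matrices did not overlap for 7 of 10 members, when 63.2% of all genes tested had no overlap, so this count is near the background. Over the same libraries the 6 mesenchymal-like basal markers summed to 6685 to 6933 cpm with GFOGER and 4388 to 4497 cpm with IKVAV. At any fold 5 of 6 were higher and 1 (ZEB1) was lower. The proliferation gene MKI67 rose by 0.30 (SE 0.0735, adjusted p = 0.00387). Without IKVAV replicate 1 it was 0.27 and did not pass. The term for the RPKM totals, which takes up that same library, gave 0.26. The 8 fibroblast markers summed to 19.08, 19.27 and 23.29 cpm with GFOGER and 35.05 and 38.52 cpm with IKVAV, without overlap, and COL1A1 was the most abundant. Of these, 4 were tested and all 4 were lower at any fold, 3 of them (PDGFRB, LUM and COL1A2) over 2-fold. The remaining one, COL1A1 (-0.54), did not pass without GFOGER replicate 2 (-0.44, adjusted p = 0.0564). It did not pass without IKVAV replicate 1 (-0.585) or 2 (-0.50) either. The term for the RPKM totals, which takes up IKVAV replicate 1, gave -0.59. The markers DCN, COL3A1, PDGFRA and FAP were below 1 cpm. The 5 immune markers summed to 355.1 to 477.2 cpm with GFOGER and 261.6 to 270.3 cpm with IKVAV, nearly all of it CD68. The part of these markers and of MKI67 in the members' results was not tested. GAPDH, a glycolytic enzyme often used as a reference, differed by 0.03 (adjusted p = 0.748) between the matrices here. Between the lines GAPDH was called higher in MDA-MB-231, with means of 1355 and 476.9 cpm with GFOGER (log2 difference 1.51, SE 0.0743) and 1317 and 520.4 cpm with IKVAV (1.34, SE 0.0803).

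In T47D cells no member passed. The log2 fold changes ran from -0.33 (TGFBR3, SE 0.21) to 0.24 (TGFBI, SE 0.466), with adjusted p-values of 0.558 to 0.992 in edgeR. Members called numbered 0 of 10 over 2-fold and at any fold, none had an unadjusted p under 0.05, and DESeq2 gave 0 of the 8 for which it gave an adjusted p. Of all genes tested, 0.022% were called and 0.044% passed at any fold. These are 3 and 6 genes, and 94 genes were called without IKVAV replicate 3, the library that stood apart, when 0 of 10 members were called or passed at any fold. The precision differed between members. For TGFB3, at 1722 reads or more per library, the 95% interval was -0.05 to 0.26, whereas for TGFBI it was -0.68 to 1.15, so that changes of the size seen in MDA-MB-231 cells were not detectable for TGFBI at this depth. SMAD7 had a value of 0.24 (SE 0.139, adjusted p = 0.558), and it was the 1 member of 10 whose libraries did not overlap, when 16% of all genes had no overlap. With each library left out, the SMAD7 value ran from 0.11 to 0.32.

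**Figure D4:**
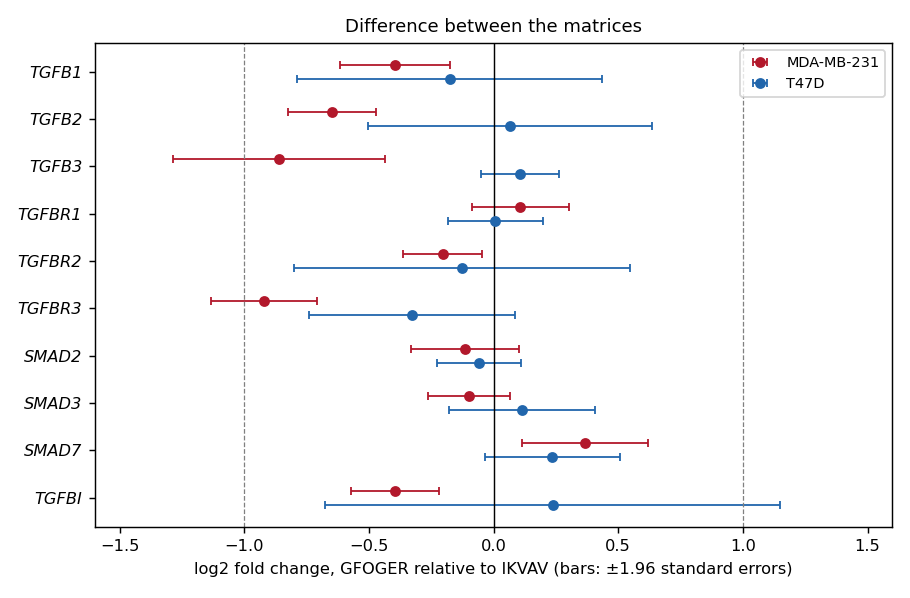
Log2 fold change of GFOGER relative to IKVAV (x axis) for the 10 genes (y axis) in each cell line. Bars are 95% intervals and dashed lines mark 2-fold. In MDA-MB-231 the intervals of the 3 ligands, TGFBR2, TGFBR3 and TGFBI lay below 0 and that of SMAD7 above it, and no gene was called over 2-fold.

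The difference between the lines in their response to the peptide was tested as an interaction. TGFB3 had a log2 interaction of -0.96 (SE 0.176, adjusted p = 0.000757): it fell with GFOGER in MDA-MB-231 cells and had a value of 0.11 (SE 0.0797) in T47D. TGFB2 (-0.71, SE 0.256, adjusted p = 0.0542) and TGFBR3 (-0.58, SE 0.209, adjusted p = 0.0539) lay just outside the threshold, and their call depended on the setting. Both passed in DESeq2 (0.0123 and 0.0367), and in edgeR with library size alone (0.0431 and 0.0416), upper-quartile normalization (0.0456 and 0.0447), at least 10 counts in every library (0.0421 and 0.0371) and no filter (0.0124 and 0.0383). Without T47D IKVAV replicate 3 they also passed (0.0268 and 0.0223), whereas without T47D IKVAV replicate 2 TGFB2 was -0.44 (adjusted p = 0.162). Of the 20 alternatives run, TGFB2 passed in 9 and TGFBR3 in 8. The other 7 members had adjusted p-values of 0.269 or more. Over 2-fold 0 of 10 members were called by edgeR or DESeq2 (6.42% of all genes), 3 had an unadjusted p under 0.05 (33.8% of all genes), and at any fold 1 passed (21% of all genes).

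Upstream of the receptors, latency proteins and activators hold or release the ligand. In MDA-MB-231, 2 of 10 tested genes of this list were called lower with GFOGER and none higher, when 6.46% of all genes were lower and 3.12% higher. At any fold 1 was higher and 4 were lower, 5 of 10, when 42.9% of all genes passed. ITGB8, the beta chain of an integrin that activates latent ligand, fell by 1.72 (SE 0.166, adjusted p = 5.86e-07). The other gene called lower is not reported here. Among the latent TGF-beta binding proteins, LTBP1 had -0.79 (adjusted p = 7.23e-06) and LTBP2 -0.76 (adjusted p = 5.33e-05), and the rest of that family is not reported here. The activator THBS1 rose by 0.79 (adjusted p = 2.01e-07).

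Among 21 other SMADs, cofactors and regulators, 1 was called higher and 2 lower, when 9.57% of all genes were called. At any fold 9 of 21 passed, 2 higher and 7 lower, near the 42.9% of all genes. NEDD4L, a ubiquitin ligase that acts on activated SMADs, rose by 1.07 (SE 0.0882, adjusted p = 8.41e-08). SMAD9, a transducer of bone morphogenetic protein (BMP) signals, fell by 1.33 (SE 0.273, adjusted p = 0.000961), and SMAD6, the inhibitory SMAD of the BMP branch, by 1.06 (SE 0.168, adjusted p = 9.46e-05), which was under 2-fold without GFOGER replicate 2 (-0.93) or IKVAV replicate 1 (-0.96). The shared partner SMAD4 differed by -0.05 (adjusted p = 0.711), the corepressor SKIL by 0.16 (adjusted p = 0.229) and the feedback gene PMEPA1 by 0.12 (adjusted p = 0.486). SMURF2, a ligase that partners SMAD7, rose by 0.36 (adjusted p = 0.00401), which was 0.27 (adjusted p = 0.144) without IKVAV replicate 2. For SKIL the adjusted p was 0.021 with the replicate block and 0.0321 without GFOGER replicate 3, both at 0.18. The block takes up that same library, so these are not separate checks.

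Of 19 tested genes of the activin and BMP branch, 2 were called higher and 3 lower, and at any fold 4 were higher and 7 lower (9.57% and 42.9% of all genes). INHBA, the activin A subunit, rose by 1.85 (SE 0.179, adjusted p = 6.04e-07) and FST, which binds and blocks activin, rose by 1.28 (SE 0.169, adjusted p = 1.63e-05). BMP4 was at 220.3, 209.6 and 256.1 cpm with GFOGER and 496.9 and 506.9 cpm with IKVAV, a fall of 1.14 on the log2 scale (SE 0.091, adjusted p = 5.91e-08). GDF15, a stress-induced member of the superfamily, fell by 1.71 (SE 0.109, adjusted p = 4.69e-09). The BMP antagonist NOG rose by 0.52 (adjusted p = 0.00132).

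All 4 ID genes, which encode inhibitors of basic helix-loop-helix factors and are typical targets of BMP signaling, passed with a lower level with GFOGER (21.4% of all genes), 3 of them over 2-fold (6.46% of all genes). ID1 was at 59.14, 62.06 and 73.62 cpm with GFOGER and 107 and 97.23 cpm with IKVAV in MDA-MB-231. ID4 was at 2.114, 2.038 and 2.505 cpm with GFOGER and 11.27 and 9.102 cpm with IKVAV. For each of the 4 genes the matrices did not overlap, as for 63.2% of all genes. The log2 fold changes were -0.66 (SE 0.11, adjusted p = 0.000168) for ID1, -1.5 (SE 0.18, adjusted p = 6.88e-06) for ID2, -1.01 (SE 0.123, adjusted p = 7.27e-06) for ID3 and -2.20 (SE 0.216, adjusted p = 7.07e-07) for ID4. ID3 was under 2-fold, at -0.92, -0.99 and -0.95, without GFOGER replicate 1, GFOGER replicate 2 or IKVAV replicate 1. The list's median was -1.26, beside 0.0039 for all genes. In T47D the 4 values ran from -0.17 to 0.16, and none passed. With a term for the RPKM totals, which leaves IKVAV replicate 3 alone as the comparison, ID1 was 0.77. Without that library ID1 was -0.07.

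Genes that TGF-beta is known to induce moved in both directions. Of 26 tested in MDA-MB-231, 4 were called higher and 5 lower, and at any fold 13 were higher and 8 lower (9.57% and 42.9% of all genes). CTGF, a matricellular protein, was at 365.2, 382.3 and 366.5 cpm with GFOGER and 138 and 146.3 cpm with IKVAV, without overlap. It rose by 1.38 (SE 0.0898, adjusted p = 5.77e-09), and TPM1, an actin-binding tropomyosin, rose by 1.04 (adjusted p = 9.38e-07) and the gelatinase MMP9 by 1.11 (adjusted p = 0.000687). FN1, which encodes fibronectin, was at 771.8, 756.7 and 756.2 cpm with GFOGER and 6302 and 6148 cpm with IKVAV, so that it fell by 3.04 (SE 0.0696, adjusted p = 1.52e-14). SNAI1 (-1.27, adjusted p = 0.000389), COL1A2 (-1.12, adjusted p = 0.00205) and NEDD9 (-1.01, adjusted p = 4.55e-07) also fell. Some of these calls were near 2-fold and ended with 1 library left out: MMP9 was 0.79 and TPM1 0.98 without IKVAV replicate 2, COL1A2 -0.92 and NEDD9 -0.96 without IKVAV replicate 1, and NEDD9 -0.97 without GFOGER replicate 2. CTGF and FN1, each a target of the pathway, thus changed in opposite directions in the same libraries.

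**Figure D5:**
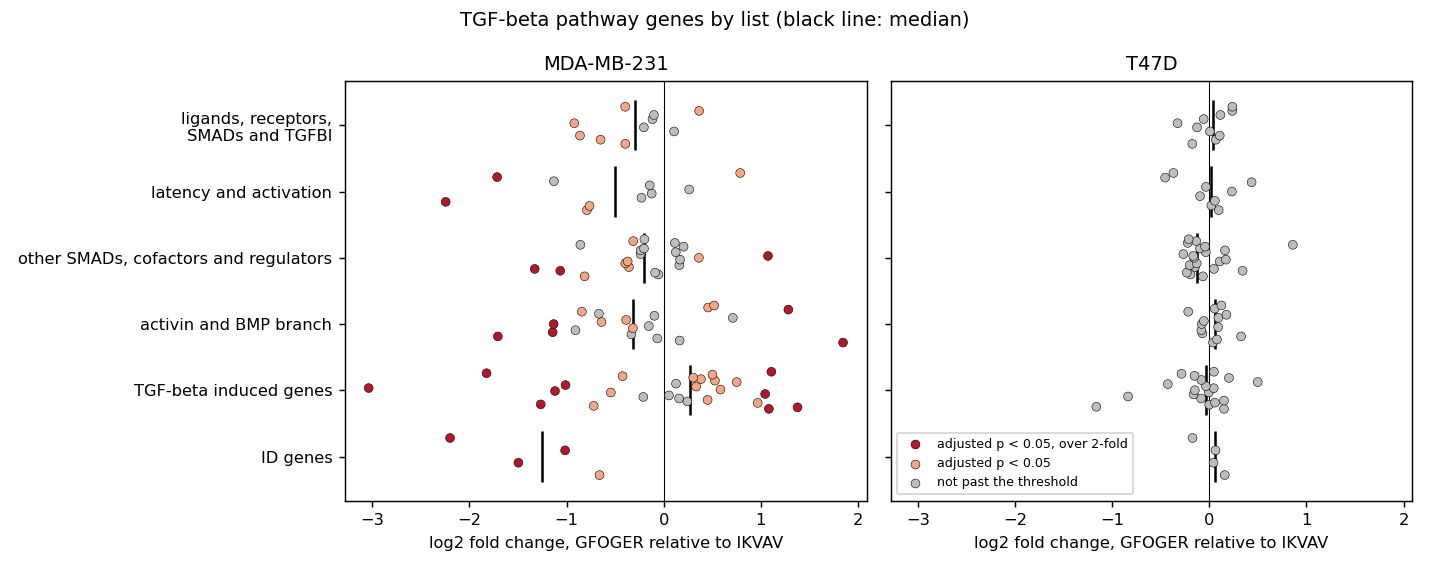
Log2 fold change of GFOGER relative to IKVAV (x axis) for the tested genes of each list (y axis) in MDA-MB-231 (left) and T47D (right). Dark red points passed the adjusted p and 2-fold, light points the adjusted p alone, grey points neither, and black lines are medians. The ID genes lay entirely below 0 in MDA-MB-231, the induced genes lay on both sides, and no gene passed in T47D in the fit shown.

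Together the 5 lists had 22 of 80 tested genes called in MDA-MB-231 (7 higher and 15 lower) and 50 at any fold (20 higher and 30 lower), to be read against the 9.57% and 42.9% of all genes. With 1 library left out, 16 to 21 list genes were called, the fewest without IKVAV replicate 1. In T47D 0 of 66 tested genes were called or passed at any fold in edgeR, 11 (and 11.2% of all genes) had an unadjusted p under 0.05, and DESeq2 called 0. There CTGF had a log2 value of -1.16 (adjusted p = 0.345), SMAD4 -0.19 (0.466), LTBP1 0.10 (0.704), SKIL -0.20 (0.482), PMEPA1 -0.04 (0.945), ID1 0.16 (0.778) and FN1 -0.04 (0.92). With a term for the RPKM totals, CTGF was -1.76, SKIL -0.41 and ID1 0.77, each against IKVAV replicate 3 alone.

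Between the cell lines, 55 of 82 tested list genes were called with GFOGER (39 higher in MDA-MB-231 and 16 lower) and 57 with IKVAV (44 and 13). Of all genes tested, 46.9% were called with GFOGER (23.7% higher and 23.2% lower) and 45.9% with IKVAV (23.6% and 22.3%). The largest differences toward MDA-MB-231 were in genes with few reads in T47D. CTGF had a mean of 371.3 cpm in MDA-MB-231 with GFOGER and 0.9468 cpm in T47D (log2 difference 8.61, SE 0.216), and FBN1, a fibrillin that binds latent complexes, 103.5 and 0.393 cpm (8.02, SE 0.174). INHBA had 330 to 417 reads per MDA-MB-231 GFOGER library and 0 or 1 read in T47D libraries, and NOG 1084 to 1340 reads against 1 to 5 in T47D GFOGER libraries. COL4A1, a basement membrane collagen, had 61.06 cpm and TNC, the matrix glycoprotein tenascin C, 184.5 cpm in MDA-MB-231 with GFOGER, and both were under 1 cpm in T47D. SMURF2 and SMURF1, which partner SMAD7, were higher in MDA-MB-231 by 4.05 (SE 0.112) and 2.14 (SE 0.117). On the T47D side, the co-receptor ENG had 1.731 cpm in MDA-MB-231 and 55.51 cpm in T47D with GFOGER (-4.99, SE 0.146), the activin and inhibin subunit INHBB 3.731 and 70.47 cpm (-4.24, SE 0.119), and the type I activin receptor ACVR1B 25.84 and 70.66 cpm (-1.45, SE 0.0998). CDKN2B, a cell cycle inhibitor known as a target of TGF-beta arrest, had 0 or 1 read in every MDA-MB-231 library and 157 to 187 reads in T47D libraries. COL1A1, a collagen chain (-2.38, SE 0.126), and RHOB, a small GTPase (-1.95, SE 0.087), were also lower in MDA-MB-231, and CHRD, a BMP antagonist, had 0 to 2 reads in MDA-MB-231 and 60 to 91 in T47D.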

How the data were processed

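The authors checked reads with FastQC and aligned them to hg19 with TopHat2. The submitters' processing notes also list Trim Galore 0.4.4, TopHat2 2.1.0, bedtools 2.17, SAMtools 1.4, HTSeq 0.6.1p1 and edgeR 3.16.5. The gene annotation and strand option are not given in the sources used here. The table deposited by the authors holds read counts without normalization, on which all tests ran, and RPKM values, used only for the library totals they imply. Of 24656 entries, 1288 repeated a symbol, and the entry with the most reads was kept.

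Genes were filtered with filterByExpr and normalized by TMM in edgeR 4.0.16 (R 4.3.3). The quasi-likelihood test was applied, and p-values were adjusted by the Benjamini-Hochberg method over all genes tested. MDA-MB-231 and T47D were fitted apart for GFOGER against IKVAV, and all 4 conditions together for the cell line differences and the interaction. Calls required an adjusted p under 0.05 and a change of over 1 on the log2 scale. On simulated data for MDA-MB-231, 198 of 200 changed genes among 13910 were recovered, with 4 false calls. Every planted change was over 2-fold and larger than any matrix change of the members in MDA-MB-231. No library was made to stand apart. The recovery of smaller changes was not tested. DESeq2 1.42.0, limma 3.58.1 (voom), other normalizations and filters, each library left out, and a replicate block were alternatives.

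Named genes were all members, CTGF, SMAD4, LTBP1, SKIL, PMEPA1, ID1, FN1, GAPDH and MKI67, and from the lists of latency and activation, other SMADs and regulators, the activin and BMP branch, induced genes and ID genes, up to 4 called genes per direction between matrices (no overlap of libraries, average log2 cpm of at least 1) and up to 3 between lines. Some genes that this rule selects are not reported here. Genes named outside this rule were chosen after their values were seen. The members and lists were chosen with earlier results of these data known. Intervals of fold changes are normal 95% intervals from the standard error.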

Additional observations from a re-analysis of the deposited data

Results flagged for a closer look

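The response to GFOGER relative to IKVAV differed between MDA-MB-231 and T47D cells by a test of the interaction, over 2-fold and with an adjusted p below 0.05 in edgeR, for 15 of 82 tested genes of the pathway lists (6.42% of all genes tested), of which those reported are given here, and for none of the 10 members. The interaction is the log2 fold change in MDA-MB-231 minus that in T47D. Among genes of latency and activation it was -1.25 for ITGB8 (adjusted p = 0.00997) and 1.17 for THBS1 (1.57e-07). Among SMADs and regulators it was 1.25 for NEDD4L (4.72e-05), -1.37 for SMAD9 (0.00587) and -1.4 for SMAD6 (0.000863). In the activin and BMP branch it was -2.03 for GDF15 (6.91e-08) and -1.06 for BMP4 (3.48e-05). Among induced genes it was 2.55 for CTGF (7.51e-05), -2.99 for FN1 (9.52e-13), 1.2 for TPM1 (2.07e-06) and -1.31 for SNAI1 (0.00862). Of the ID genes, ID4 had -2.02 (2.58e-05), ID2 -1.53 (0.000281) and ID3 -1.07 (0.00433).

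CTGF had 9 to 54 reads in T47D libraries, and its T47D value of -1.16 (adjusted p = 0.345) forms part of its interaction. Over the alternatives run, the interaction of CTGF was 1.80 to 2.90 and its T47D value -1.76 to -0.36. Without T47D IKVAV replicate 3 the interaction was under 2-fold for ITGB8 (-0.98) and ID3 (-0.85), and for ID3 also without MDA-MB-231 GFOGER replicate 1 (-0.99). With a term for the RPKM totals, the interaction of SMAD9 was -1.1 (adjusted p = 0.0679) and that of SNAI1 -1.15 (adjusted p = 0.0617).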

How the results depend on the processing

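Between the cell lines 8 of 10 members were called in each matrix under all alternatives run except 3: 7 were with at least 10 counts in every library, 9 by the adjusted p alone, and 9 with GFOGER when the RPKM totals were a term. Counts of all genes moved more. In MDA-MB-231 (1349 genes, 22 list genes) a 2-fold threshold inside the test gave 403 and 7, and the adjusted p alone gave 6040 genes, 6 members and 50 list genes. In T47D the 3 genes became 8 (DESeq2), 20 (no filter), 0 (2-fold inside the test), 6 (adjusted p alone), 5 (replicate block, and all 4 conditions in one fit), 192 (voom) and 49 (RPKM totals, with 3 list genes). At least 10 counts in every library gave 4227 genes and 35 list genes between the lines with GFOGER and 4161 genes with IKVAV, and the adjusted p alone gave 12187 and 11838. The interaction (983 genes, 15 list genes) became 132 and 5 (2-fold inside), 3221, 1 member and 28 (adjusted p alone), 1610 and 1 member (voom), and 1 member (RPKM totals). With each library left out the counts were 1139 to 1483 (MDA-MB-231), 0 to 94 (T47D: 94 without IKVAV replicate 3, 1 without GFOGER replicate 2, 0 without GFOGER replicate 1 or 3 or IKVAV replicate 2), 797 to 1140 (interaction) and 0 to 1 member in the interaction. With a term for the RPKM totals, COL1A2 (-0.92), ID3 (-0.96), NEDD9 (-0.96) and SMAD6 (-0.97) were under 2-fold in MDA-MB-231. They were also under 2-fold without IKVAV replicate 1, the library that this term takes up. NEDD9 was under 2-fold with no filter as well (-0.9986). The T47D counts with the term rest on IKVAV replicate 3 alone. The causes were not tested.

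Replicate numbers did not pair the libraries: same-numbered libraries of different groups deviated from their means with correlations of -0.184 to 0.0429 over 15 pairs. In MDA-MB-231 the replicate block takes up GFOGER replicate 3, which has no IKVAV partner, and so in effect leaves that library out. With the block TGFBR1, TGFBR2 and SMAD3 passed there (adjusted p = 6.21e-05, 7.17e-05 and 0.00655), as they did without GFOGER replicate 3. PMEPA1 there turned to -0.0618, beside -0.0647 without that library.

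Values near 0 changed sign, none of them past the threshold as reported. PMEPA1 in MDA-MB-231 was -0.0441 in voom. In T47D, TGFBR1 was -0.0026 (upper quartile) and -0.1883 (RPKM totals), TGFB2 -0.1865 and TGFBR2 0.1598 (RPKM totals), PMEPA1 0.0091 and ID1 -0.0586 (voom). SMAD2 between the lines was 0.0086 (voom) and 0.0676 (RPKM totals) with GFOGER, and 0.0156 (DESeq2), 0.0246 (at least 10 counts) and 0.0358 (voom) with IKVAV, where ID1 was -0.0723 (voom). In the interaction TGFBR2 was 0.1189 and PMEPA1 -0.049 (voom) and SMAD2 0.0917 (RPKM totals). With each library left out, the T47D values ran from -0.39 to 0.0114 (TGFB1), -0.2148 to 0.2372 (TGFB2), -0.0643 to 0.1134 (TGFBR1), -0.258 to 0.0322 (TGFBR2), -0.1044 to 0.0049 (SMAD2), -0.1519 to 0.71 (TGFBI), -0.1213 to 0.134 (PMEPA1), -0.0739 to 0.3828 (ID1) and -0.1071 to 0.0007 (FN1). Likewise PMEPA1 in MDA-MB-231 ran from -0.0647 to 0.2366, SMAD2 between the lines from -0.1151 to 0.0462 (GFOGER) and -0.0435 to 0.0596 (IKVAV), ID1 between the lines with IKVAV from -0.1453 to 0.3174, and the interaction of TGFBR1 from -0.002 to 0.1866, TGFBR2 -0.2397 to 0.056, SMAD2 -0.1217 to 0.0399, SMAD7 -0.0185 to 0.2866 and PMEPA1 -0.0273 to 0.2771.

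Depth limits TGFBR2 and TGFBI in T47D, with 7 to 19 reads per library, and MDA-MB-231 with IKVAV has 2 libraries.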

Other observations

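Some transcripts known from immune and endothelial cells were present in MDA-MB-231 libraries. CD68, a lysosomal protein of macrophages, was at 246.1 to 462 cpm in MDA-MB-231 and 1.879 to 3.274 cpm in T47D, and it rose with GFOGER in MDA-MB-231 by 0.61 on the log2 scale (SE 0.112, adjusted p = 0.000383, edgeR). Of the other 4 immune markers, CD14 had means of 8.564 cpm with GFOGER and 10.43 cpm with IKVAV and CSF1R 4.091 cpm with each in MDA-MB-231, where PTPRC was below 1 cpm and CD3E at 0, and in T47D all 4 were below 1 cpm. KDR, a receptor for vascular endothelial growth factor, had means of 18.28 cpm with GFOGER and 9.36 cpm with IKVAV in MDA-MB-231, and PECAM1 had 8.914 and 14.43 cpm, while CDH5 and VWF were below 1 cpm. The 8 fibroblast markers summed to 19.08 to 23.29 cpm with GFOGER and 35.05 to 38.52 cpm with IKVAV in MDA-MB-231, and to 52.91 to 62.86 cpm in T47D, where COL1A1 made up nearly all of the sum.

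The genes whose log2 cpm was most like that of a member across the 11 libraries were GPR116, MAP4K4 and ETV5 for TGFBR2 (Pearson r of 0.9997, 0.9993 and 0.9991), NRP1, DOCK4 and MBP for TGFBI (0.9994, 0.9991 and 0.9989), and TAF8, SLC4A11 and NAV2 for TGFB1 (0.9987, 0.9984 and 0.9984). These libraries share only 2 cell lines, and 1875 to 1959 of 11148 genes had an r above 0.95 with each, so the values describe the split between the lines.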
